A study of Mus musculus with 27 samples.

Results

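The comparison set the middle of the liver lobule against its pericentral end in mice that were not pregnant: zone 2 against zone 3 of non-pregnant (NP) liver, with 3 laser-captured libraries per zone. These 6 libraries are part of 27, which cover zones 1, 2 and 3 in NP mice and in pregnant mice at dpc8 and dpc16 (days post-coitum 8 and 16). All libraries came from wild-type (WT) C57BL/6 females, and the study's methods give C57BL/6N virgin females of 8 to 14 weeks. Its reporting form instead gives mice of 8 weeks to 12 months. Each RNA sample was taken from 2 mm2 of tissue cut from 5 µm cryosections, so each value is a mixture of hepatocytes and the non-parenchymal cells lying among them. Of 21823 genes in the table, 11200 reached 1 FPKM (fragments per kilobase of transcript, scaled to the mapped fragments of the library) in at least 3 of the 6 libraries, and these 11200 were tested.

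Hepatocytes along the axis from the portal vein to the central vein divide the work of the organ. Periportal cells, which receive oxygen- and nutrient-rich blood first, are known for urea synthesis, gluconeogenesis and amino acid breakdown, whereas the cells around the central vein are known for glutamine synthesis, bile acid synthesis and cytochrome P450-dependent detoxification. Pericentral identity is known to be maintained by Wnt ligands from the endothelium of the central vein acting through beta-catenin, and the midlobular zone between both ends is known for its own markers such as the iron hormone hepcidin. Comparing zone 2 with zone 3 asks which genes change on the last stretch of this axis before the central vein.

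The 6 libraries held 10675 to 11342 genes at 1 FPKM or more. Steps in the lowest FPKM values gave depths of about 11.48 to 20.1 megareads, at which 1 read in a gene of 1 kb is worth 0.0498 to 0.0871 FPKM. Over genes, correlations on the log2(FPKM + 1) scale were 0.903 to 0.944 for the 6 pairs of libraries of one zone and 0.877 to 0.948 for the 9 pairs across zones. Zone 2 replicate 3 had the lowest correlations with the other 5 libraries, 0.877 to 0.916, against 0.885 to 0.909 for zone 3 replicate 2. Without zone 2 replicate 3, 34 genes passed in place of 55, all among the 55. Zone 3 replicate 2 stood apart in marker genes. Its summed Y-linked signal was 7.92 FPKM although the sample is labelled female, against at most 2.25 FPKM in the other 5, and its mean log2 level of 22 smooth muscle and connective tissue genes was 4.18, against 1.65 to 3.09. Results are therefore also given without zone 3 replicate 2: 52 genes then passed, of which 42 were shared. The split turned from 30 higher in zone 2 and 25 higher in zone 3 to 24 and 28. Of the 55 genes, 11, 12 and 21 did not pass without zone 2 replicate 1, 2 or 3, and 20, 13 and 20 did not pass without zone 3 replicate 1, 2 or 3, while 28 passed in all 6 of these refits. The 13 genes lost without zone 3 replicate 2 were Cdh1, Clec4f, Cryl1, Plbd2, Ano1, Adgre4, Uroc1, 4921524J17Rik, Gbp2b, Adgrf1, Tent5c, Noxred1 and Gm45692.

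A total of 55 genes differed between zone 2 and zone 3 by limma at a Benjamini-Hochberg adjusted p under 0.05, which is 0.491% of the genes tested. Of these, 30 (0.268%) were higher in zone 2 and 25 (0.223%) were higher in zone 3. Of the 55, 14 reached the minimum level through the zone where they were higher alone, being below 1 FPKM in every library of the other zone. Of the other 41, 24 were higher in zone 2 and 17 in zone 3. Some of the 41, such as Cdh1 and Tnfrsf19, were still below 1 FPKM in most libraries of the lower zone. All 55 had groups that did not overlap, a property shared by 1363 of the 11200 genes (12.2%), and 841 genes (7.51%) had an unadjusted p under 0.05. By the sign of the fitted value alone, 49.7% of genes were higher in zone 2 and 50.3% in zone 3, and the median difference over all genes was -0.00265 on the log2 scale. Differences below are zone 2 minus zone 3 on log2(FPKM + 1), given with their standard error (SE) from limma, n = 3 libraries per zone, and levels are FPKM in replicates 1, 2 and 3. The labels do not say which captures came from which animal, so p-values measure only the spread between these samples. Because of the added 1, a difference understates the change of a gene with low FPKM.

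**Figure D1:**
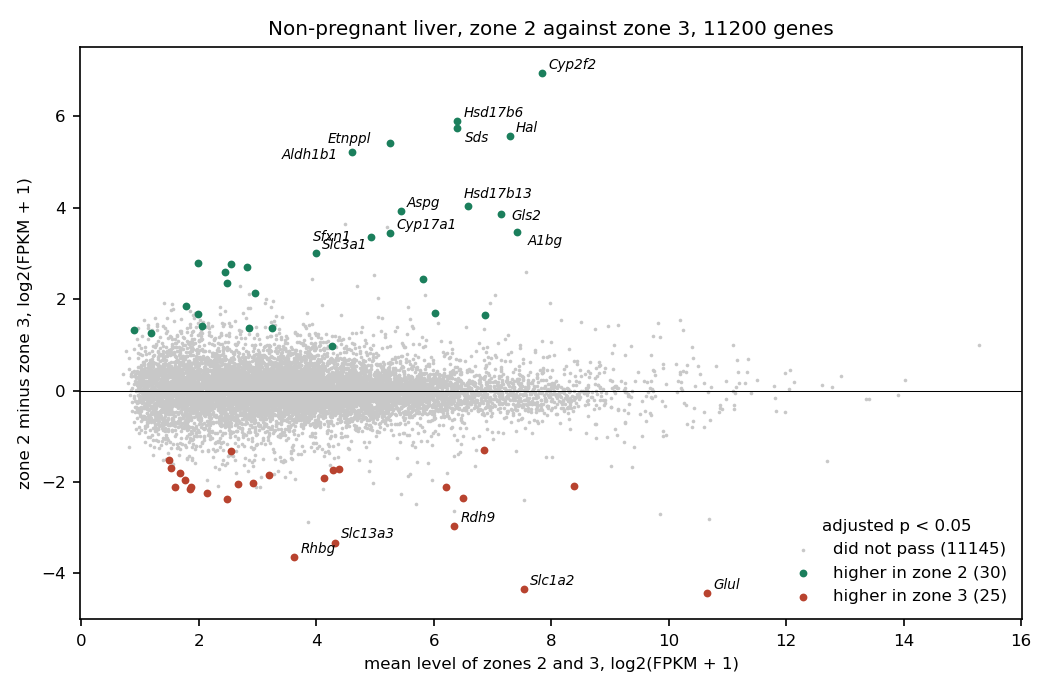
Mean level of zones 2 and 3 (x axis, log2(FPKM + 1)) against the zone 2 minus zone 3 difference (y axis, log2(FPKM + 1)) for the 11200 genes tested in NP liver; each point is a gene, green points passed with a higher level in zone 2 (30) and red points with a higher level in zone 3 (25). The differences reached 6.95 for Cyp2f2 and -4.43 for Glul, while most genes lay close to 0 at every level.

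The 3 genes with the largest differences on the zone 3 side act on glutamate and ammonia. Glul encodes glutamine synthetase, which joins ammonia to glutamate in the last hepatocytes before the central vein (ENSMUSG00000026473.16, chr1:153899944-153909723, plus strand; GENCODE vM21, mm10). It stood at 184, 139.7 and 110.5 FPKM in zone 2 and at 3264, 2889.7 and 3092 FPKM in zone 3. Each zone 3 library was above every zone 2 library by more than an order of magnitude, and the ratio of the means was 21.3 (-4.43 ± 0.43, adjusted p = 2.59e-06). Slc1a2, a glutamate uptake transporter (ENSMUSG00000005089.15, chr2:102658659-102790784, plus strand), was at 16, 16 and 16.6 FPKM in zone 2 and 427, 280.1 and 349 FPKM in zone 3. Its zone 2 values lay within 1 FPKM of each other, and the zone 3 mean was 21.7 times the zone 2 mean (-4.34 ± 0.48, adjusted p = 7.64e-06). Rhbg, an ammonia channel of the Rhesus family (ENSMUSG00000104445.1, chr3:88242874-88254709, minus strand), was below 1 FPKM in every zone 2 library, at 0.678, 0.504 and 0.681 FPKM, against 26.8, 8.04 and 31.6 FPKM in zone 3. Its lowest zone 3 value was in replicate 2, and the groups did not overlap (-3.64 ± 0.37, adjusted p = 4.53e-06). Rhbg shares 1190 of its 1937 exon bases with the gene model Gm38392 on the same strand, so its reads could have been split between both.

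Among 17 tested genes of glutamine synthesis, glutamate uptake and ammonia scavenging, 3 passed with a higher level in zone 3, against 0.223% of all genes. In zone 2, 1 passed with a higher level, against 0.268% of all genes, and 13 did not pass. The median difference of the list was -0.04 against -0.00265 over all genes. It was -0.27 without zone 3 replicate 2, -0.34 without zone 2 replicate 1, 0.08 without zone 2 replicate 3 and 0.0055 over the 16 genes other than Rhbg. The 1 gene higher in zone 2 was Gls2, the liver glutaminase that runs the opposite reaction to Glul (ENSMUSG00000044005.13, chr10:128194457-128210004, plus strand). Gls2 was at 245, 274 and 261 FPKM in zone 2 and 30.8, 29.1 and 4.94 FPKM in zone 3, with the lowest value in zone 3 replicate 3 (3.87 ± 0.55, adjusted p = 0.000378). Oat, ornithine aminotransferase, which makes glutamate from ornithine, had levels of 277, 251 and 206 FPKM in zone 2 and 1736, 1559 and 1498 FPKM in zone 3. The groups were far apart, yet Oat missed the threshold (-2.71 ± 0.62, adjusted p = 0.0513). The neutral amino acid transporter Slc1a5 had 0.984, 0.603 and 1.25 FPKM in zone 2 and 4.43, 3.83 and 4.29 FPKM in zone 3 and did not pass (-1.43 ± 0.58, adjusted p = 0.518).

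**Figure D2:**
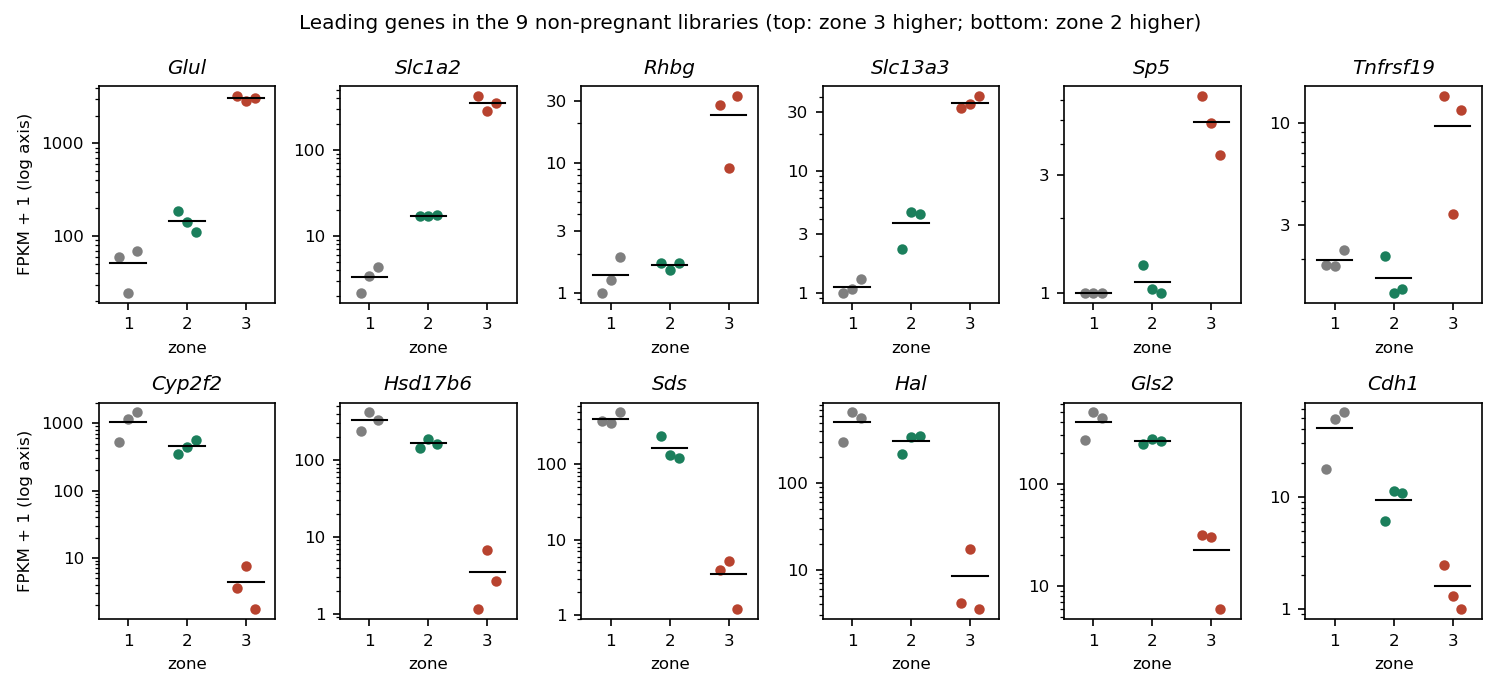
FPKM + 1 (y axis, log scale, a separate range in each panel) in zones 1, 2 and 3 (x axis) of NP liver for 6 genes higher in zone 3 (top row) and 6 genes higher in zone 2 (bottom row); points are libraries, 3 per zone, and the line is their mean. Glul in zone 3 lay between 2890 and 3264 FPKM and in zone 2 between 110.5 and 184 FPKM, whereas Cyp2f2 lay between 347 and 569 FPKM in zone 2 and at no more than 6.60 FPKM in zone 3.

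Other genes higher in zone 3 encode transporters and enzymes of several kinds. Slc13a3, a sodium-coupled dicarboxylate transporter (ENSMUSG00000018459.15, chr2:165405028-165473230, minus strand), was at 1.3, 3.54 and 3.39 FPKM in zone 2 and 31.4, 33.9 and 40.0 FPKM in zone 3 (-3.33 ± 0.36, adjusted p = 7.08e-06). Slc22a3, an organic cation transporter, was at 0.462, 0.0975 and 1.12 FPKM in zone 2 and 7.16, 4.91 and 6.6 FPKM in zone 3 (-2.25 ± 0.38, adjusted p = 0.00292). Both transporters were under 4 FPKM in every zone 2 library, and in both the zones did not overlap. Slc22a3 shares 420 exon bases with the plasminogen gene Plg on the opposite strand, whose mean levels were 1226 FPKM in zone 2 and 1060.2 FPKM in zone 3.

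Rdh9, a retinol dehydrogenase family member, spread widely within each zone, with 31.8, 15.8 and 6.57 FPKM in zone 2 and 164, 57.2 and 208 FPKM in zone 3 (-2.97 ± 0.55, adjusted p = 0.00675). It shares 2302 exon bases with Rdh16f1 on the same strand and its call was lost without zone 2 replicate 3 and zone 3 replicates 1 and 3 in turn, adjusted p = 0.0952, 0.0583 and 0.0758. Lhpp, a histidine phosphatase, was at 32, 26.1 and 27 FPKM in zone 2 and 190.5, 126 and 134 FPKM in zone 3 (-2.34 ± 0.43, adjusted p = 0.00675). The Lhpp call was lost without zone 3 replicate 1, adjusted p = 0.0583. Gulo, which catalyses the last step of vitamin C synthesis, was at 151, 117 and 112 FPKM in zone 2 and 555, 409 and 668 FPKM in zone 3 (-2.08 ± 0.33, adjusted p = 0.0016). The zone 3 mean was 5.29 times the zone 2 mean for Lhpp and 4.3 times for Gulo. Gstm2, a glutathione S-transferase of the mu class, was at 30.2, 27.7 and 22.4 FPKM in zone 2 and 112, 102 and 146 FPKM in zone 3 (-2.12 ± 0.34, adjusted p = 0.0016). Its value is uncertain to the extent that unique reads were divided among the similar mu class genes. Blvrb, biliverdin reductase B, was at 78.8, 74.3 and 48.5 FPKM in zone 2 and 170.1, 142 and 179 FPKM in zone 3, the smallest difference among the genes that passed on this side (-1.29 ± 0.27, adjusted p = 0.0237). The Blvrb call was lost without zone 2 replicate 3 and zone 3 replicates 1 and 3 in turn, adjusted p = 0.225, 0.102 and 0.146.

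Zone 3 was also described by markers of pericentral hepatocytes. This list was chosen with earlier results of these data known, so it gives no independent check of the label. All 20 markers were tested and 5 passed (Glul, Slc1a2, Rhbg, Lhpp and Gulo). Rhbg reached the 1 FPKM minimum through zone 3 alone and is left out of the counts that follow. All 19 other markers had a higher fitted level in zone 3 (50.3% of all genes), and 4 passed, against 0.223% of all genes in that direction. Of the 19, 16 had an unadjusted p under 0.05 (3.12% of all genes in that direction), 17 did not overlap (5.62% of all genes) and the median difference was -1.65. Cyp2e1, the ethanol-inducible cytochrome P450, had 4867, 2620.5 and 2875 FPKM in zone 2 and 11838, 7106 and 10625 FPKM in zone 3 and did not pass (-1.54 ± 0.41, adjusted p = 0.123). Cyp1a2, the caffeine-metabolizing P450, had 260.5, 226 and 253 FPKM in zone 2 and 791, 629 and 932 FPKM in zone 3 and did not pass either (-1.65 ± 0.53, adjusted p = 0.277). In both genes all 3 zone 3 libraries lay above all 3 zone 2 libraries.

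Among 20 tested genes of the Wnt pathway, which include targets, receptors and other components, Sp5 reached the 1 FPKM minimum through zone 3 alone. Of the other 19, 2 passed, both higher in zone 3, against 0.223% of all genes in that direction. In 14 the fitted level was higher in zone 3 (50.3% of all genes), and the median difference was -0.28. By limma, 7 had an unadjusted p under 0.05 with a higher level in zone 3 (3.12% of all genes) and 0 with a higher level in zone 2. The zones did not overlap in 8 genes higher in zone 3 (5.62% of all genes) and in 1 higher in zone 2 (6.54%). Sp5, a zinc finger transcription factor and a direct target of beta-catenin (ENSMUSG00000075304.2, chr2:70474923-70477729, plus strand), was listed at 0 in all 3 zone 1 libraries, was at 0.296, 0.0336 and 0 FPKM in zone 2 and reached 5.26, 3.86 and 2.62 FPKM in zone 3 (-2.12 ± 0.23, adjusted p = 7.64e-06). Nkd1, a feedback inhibitor that binds Dishevelled, was at 1.77, 3.66 and 0.929 FPKM in zone 2 and 9.38, 9.63 and 14.2 FPKM in zone 3 (-2.03 ± 0.35, adjusted p = 0.00348). Tnfrsf19, a receptor of the tumour necrosis factor family, was at 1.08, 0.352 and 0.42 FPKM in zone 2 and 12.7, 2.41 and 10.7 FPKM in zone 3, with the lowest zone 3 value in replicate 2 (-2.37 ± 0.42, adjusted p = 0.00503). Sp5, Nkd1 and Tnfrsf19 were under 15 FPKM in every library of both zones, and none overlapped. The Tnfrsf19 call was lost without zone 3 replicates 1 and 3 in turn, adjusted p = 0.0583 and 0.0561.

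Better-known targets of the pathway did not pass. Axin2, the scaffold of the beta-catenin destruction complex, had 2.11, 9.98 and 2.69 FPKM in zone 2 and 12.7, 21.9 and 15.3 FPKM in zone 3 (-1.78 ± 0.53, adjusted p = 0.203). Tbx3, a repressor of the T-box family, had 9.28, 23.3 and 8.09 FPKM in zone 2 and 32.7, 45.9 and 54 FPKM in zone 3 (-1.75 ± 0.48, adjusted p = 0.142). Lgr5, the R-spondin receptor, had 1.42, 3.36 and 2.74 FPKM in zone 2 and 7.58, 7.31 and 5.29 FPKM in zone 3 (-1.17 ± 0.52, adjusted p = 0.594). Zone 3 lay above zone 2 without overlap in each of the 3, and in Axin2 and Tbx3 the highest zone 2 value was in replicate 2. The ubiquitin ligase Znrf3 (-0.8 ± 0.24, adjusted p = 0.194) and the transcription factor Tcf7 (-0.94 ± 0.34, adjusted p = 0.384) had smaller differences of the same sign that did not pass.

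The core letters of the TCF/LEF motif, through which beta-catenin acts on DNA, were looked up in promoters as a description of the genes. The letters CTTTGAT were searched on both strands in windows from 250 bases before to 50 bases after each RefSeq transcription start, and 1225 of 32851 windows (3.73%) held them. By window, 4 of 23 (17.4%) held them among genes higher in zone 3 and 1 of 25 (4.0%) among genes higher in zone 2. Of the 25 genes higher in zone 3, 21 had a window and 4 of these held the letters (Sp5, Slc1a2, Tnfrsf19 and Teddm2). Of the 30 genes higher in zone 2, 23 had a window and 1 held them (Hal). The 250 bases before the start of 4 of them are printed 5′ to 3′ on the strand of the gene, from RefSeq on GRCm38.p6, with the matching letters in capitals, so that the spacing of the letters from the start, which is the right-hand end, can be seen. They lie at chr2:70474673-70474922 on the plus strand for Sp5, chr2:102706188-102706437 on the plus strand for Slc1a2, chr14:61037988-61038237 on the minus strand for Tnfrsf19 and chr10:93488518-93488767 on the plus strand for Hal, and the Slc1a2 window belongs to a start inside the gene. The match in Teddm2 lay 43 bases after the start and is not printed.
Sp5: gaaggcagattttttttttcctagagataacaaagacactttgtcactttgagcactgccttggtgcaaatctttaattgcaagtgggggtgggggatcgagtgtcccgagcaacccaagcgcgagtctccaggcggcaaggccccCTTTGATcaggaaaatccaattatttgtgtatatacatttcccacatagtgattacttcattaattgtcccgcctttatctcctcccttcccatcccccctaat
Slc1a2: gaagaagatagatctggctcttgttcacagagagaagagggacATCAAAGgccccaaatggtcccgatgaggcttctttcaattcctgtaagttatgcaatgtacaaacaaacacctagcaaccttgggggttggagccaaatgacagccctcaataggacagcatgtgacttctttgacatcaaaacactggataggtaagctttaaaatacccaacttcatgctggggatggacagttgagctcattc
Tnfrsf19: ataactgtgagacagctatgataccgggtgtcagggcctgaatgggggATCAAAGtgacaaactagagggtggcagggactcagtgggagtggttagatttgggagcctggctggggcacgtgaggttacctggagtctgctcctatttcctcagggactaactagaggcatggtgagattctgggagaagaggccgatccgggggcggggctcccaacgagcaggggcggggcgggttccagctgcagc
Hal: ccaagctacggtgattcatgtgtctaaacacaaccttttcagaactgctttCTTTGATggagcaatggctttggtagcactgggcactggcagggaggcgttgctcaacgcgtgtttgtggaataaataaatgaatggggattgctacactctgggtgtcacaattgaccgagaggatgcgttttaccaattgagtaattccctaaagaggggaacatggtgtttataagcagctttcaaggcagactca
The first letter of the match lay 104 bases before the start in Sp5, 207 in Slc1a2, 202 in Tnfrsf19 and 199 in Hal, and in Slc1a2 and Tnfrsf19 it was read on the opposite strand as ATCAAAG. The core letters AAAGTCC of the HNF4A motif, searched in the same way, were held by 1382 windows (4.21%). Among genes higher in zone 3 they were in 1 of 23 windows (Slc22a3), and among genes higher in zone 2 in 1 of 25 (Slc3a1).

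The other genes that passed on the zone 3 side were under 50 FPKM in every library of both zones. Tuba8, an alpha-tubulin, was at 0.697, 0.186 and 0 FPKM in zone 2 and 4.85, 7.16 and 2.7 FPKM in zone 3 (-2.15 ± 0.32, adjusted p = 0.000635). Ihh, a ligand of the hedgehog pathway, was at 0.106, 0.816 and 0 FPKM in zone 2 and 3.32, 1.46 and 5.51 FPKM in zone 3 (-1.7 ± 0.29, adjusted p = 0.00335). Both were below 1 FPKM throughout zone 2, as were Rhbg, Sp5, Ano1, Blnk, Gm45692 and Teddm2, and these 8 genes reached the minimum of 1 FPKM in 3 libraries through their zone 3 values alone. Teddm2 had 0.471, 0.197 and 0.243 FPKM in zone 2 and 7.5, 5.11 and 2.47 FPKM in zone 3 (-2.12 ± 0.32, adjusted p = 0.000644), and it overlaps Glul on the opposite strand by 116 exon bases. The strand setting of the counting is not given in the sources used here, so its reads cannot be told apart from those of Glul, whose mean in zone 3 was 3082 FPKM.

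Cib2, a calcium- and integrin-binding protein, was at 1.01, 0.673 and 2.82 FPKM in zone 2 and 6.42, 6.73 and 14.6 FPKM in zone 3 (-2.04 ± 0.41, adjusted p = 0.015). The Cib2 call was lost without zone 2 replicates 1 and 2 and zone 3 replicate 3 in turn, adjusted p = 0.0695, 0.107 and 0.163. Nxpe2 was at 13.2, 7.22 and 4.76 FPKM in zone 2 and 24.4, 26 and 35.4 FPKM in zone 3 (-1.74 ± 0.32, adjusted p = 0.00675). The Nxpe2 call was lost without zone 2 replicate 3 and zone 3 replicate 3 in turn, adjusted p = 0.0874 and 0.0697. Pcp4l1 was at 16, 4.91 and 6.59 FPKM and 45.8, 20.0 and 26.7 FPKM (-1.72 ± 0.39, adjusted p = 0.0477). The Pcp4l1 call was lost without zone 2 replicates 2 and 3 and zone 3 replicates 1 and 3 in turn, adjusted p = 0.215, 0.26, 0.249 and 0.146. Pkdcc, a secreted kinase, was at 5.11, 10.7 and 4.05 FPKM and 27, 18.5 and 34.4 FPKM (-1.92 ± 0.42, adjusted p = 0.0313). The Pkdcc call was lost without zone 2 replicates 1 and 3 and zone 3 replicates 1 and 3 in turn, adjusted p = 0.107, 0.247, 0.117 and 0.205. The remaining genes of this side were the chloride channel Ano1 (-1.81), the adaptor Blnk (-1.53), the adhesion receptor Adgrf1 (-1.32), 4921524J17Rik (-1.84) and Gm45692 (-1.96), with adjusted p from 0.0262 to 0.0426. Of the exon bases of Gm45692, 512 of 557 are shared with Rnf170 on the same strand. None of these 5 overlapped between zones, yet each lost its call without 4 or 5 of the 6 libraries in turn, with adjusted p up to 0.3 for Ano1, 0.23 for Blnk, 0.225 for Adgrf1, 0.184 for 4921524J17Rik and 0.225 for Gm45692.

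On the zone 2 side the largest difference of all belonged to Cyp2f2, a cytochrome P450 of naphthalene metabolism and a periportal marker (ENSMUSG00000052974.8, chr7:27119909-27133660, plus strand). It stood at 347, 444 and 569 FPKM in zone 2 and 2.61, 6.6 and 0.716 FPKM in zone 3, so that zone 2 was 137 times zone 3 (6.95 ± 0.52, adjusted p = 5.24e-08). Hsd17b6, a hydroxysteroid dehydrogenase (ENSMUSG00000025396.7, chr10:127990936-128007611, minus strand), was at 144, 187 and 161 FPKM in zone 2 and 0.146, 5.68 and 1.71 FPKM in zone 3 (5.9 ± 0.66, adjusted p = 9.49e-06). In both genes zone 3 replicate 2 held the highest zone 3 value, still below 7 FPKM. Cyp17a1, which hydroxylates and cleaves steroids, was at 79.7, 46 and 82 FPKM in zone 2 and 7.38, 3.59 and 5.45 FPKM in zone 3 (3.44 ± 0.63, adjusted p = 0.00675). The Cyp17a1 call was lost without zone 2 replicate 3, adjusted p = 0.0557. Hsd17b13, a lipid droplet protein of the same dehydrogenase family as Hsd17b6, was at 233, 140.0 and 166 FPKM and 13.2, 12.1 and 5.79 FPKM (4.03 ± 0.47, adjusted p = 1.39e-05). All 4 genes were higher in each zone 2 library than in any zone 3 library.

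Some enzymes of amino acid breakdown were also higher in zone 2. Of 26 tested genes of amino acid breakdown, 4 passed, all higher in zone 2 (Sds, Hal, Sdsl and Uroc1), against 0.268% of all genes, and 22 did not pass. The median difference was 0.42 (0.22 without zone 3 replicate 2 and 0.04 with the connective tissue level as a covariate). Without Sdsl, which reached the minimum through zone 2 alone, 3 of 25 passed and the median was 0.37. Sds, serine dehydratase, which turns serine into pyruvate (ENSMUSG00000029597.14, chr5:120476526-120483932, plus strand), was at 240.0, 132 and 119.6 FPKM in zone 2 and 2.97, 4.26 and 0.197 FPKM in zone 3 (5.75 ± 0.6, adjusted p = 5.21e-06). Its relative Sdsl was at 6.54, 5.24 and 5.96 FPKM in zone 2 and was listed at 0 in all 3 zone 3 libraries (adjusted p = 0.000504), so no fold is given. Sfxn1, the carrier that brings serine into mitochondria, was at 59.5, 52.3 and 51.9 FPKM in zone 2 and 3.16, 7.15 and 3.71 FPKM in zone 3 (3.35 ± 0.42, adjusted p = 5.66e-05). All 3 serine genes were under 8 FPKM in every zone 3 library. Plbd2, a lysosomal protein, overlaps Sds on the opposite strand by 360 exon bases, and its smaller difference (29.9, 22.6 and 21.7 FPKM in zone 2 and 14.2, 9.88 and 11.9 FPKM in zone 3, 0.98 ± 0.19, adjusted p = 0.0111) cannot be told apart from reads of Sds without the strand setting. The Plbd2 call was lost without zone 2 replicate 1 and zone 3 replicates 2 and 3 in turn, adjusted p = 0.0791, 0.0829 and 0.055.

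Among the enzymes of histidine breakdown, Hal and Uroc1 passed. Hal, histidine ammonia-lyase, which catalyses the first step (ENSMUSG00000020017.14, chr10:93488768-93519304, plus strand), was at 219.6, 338 and 356 FPKM in zone 2 and 3.14, 16.5 and 2.49 FPKM in zone 3 (5.56 ± 0.58, adjusted p = 4.53e-06). Uroc1, urocanase, which catalyses the second step, was at 203, 179 and 144 FPKM and 77.7, 44.1 and 48.3 FPKM (1.64 ± 0.33, adjusted p = 0.0157). The Uroc1 call was lost without zone 2 replicates 1 and 2 and zone 3 replicates 2 and 3 in turn, adjusted p = 0.0791, 0.0628, 0.0994 and 0.115. Amdhd1, of the third step, had 77.6, 114 and 80.6 FPKM and 23.3, 32 and 10.9 FPKM and did not pass (2.09 ± 0.54, adjusted p = 0.0975), nor did Ftcd, of the last step, with 105, 122 and 70.1 FPKM and 37.4, 31.2 and 33.9 FPKM (1.47 ± 0.4, adjusted p = 0.127). The largest of the 4 differences was that of Hal. Gldc, of the glycine cleavage system, had 36, 77.4 and 80.3 FPKM in zone 2 and 1.8, 18.4 and 1.6 FPKM in zone 3, with zone 3 replicate 2 far above the other zone 3 libraries, and did not pass (3.57 ± 0.86, adjusted p = 0.0666).

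Aspg, an asparaginase, was at 106, 82.3 and 52.3 FPKM in zone 2 and 6.71, 4.16 and 2.36 FPKM in zone 3 (3.93 ± 0.44, adjusted p = 8.5e-06). Etnppl, which degrades phosphoethanolamine, was at 47.1, 94.6 and 78.2 FPKM in zone 2 and 0.339, 1.97 and 0.194 FPKM in zone 3 (5.41 ± 0.53, adjusted p = 2.81e-06). Slc3a1, the heavy subunit of the cystine and dibasic amino acid transporter, was at 24.1, 35.9 and 22.2 FPKM and 2.39, 3.44 and 1.78 FPKM (3.0 ± 0.51, adjusted p = 0.00335). Slc3a1 shares 601 exon bases with Prepl on the opposite strand. In the urea cycle, which takes up the ammonia that such enzymes release, none of 10 tested genes passed, 8 had a higher fitted level in zone 2, 4 had an unadjusted p under 0.05, all higher in zone 2 (4.39% of all genes), and the median difference was 0.74 (0.39 with the connective tissue level as a covariate). Asl, argininosuccinate lyase, had 579, 522 and 513 FPKM in zone 2 and 190.4, 170.5 and 207 FPKM in zone 3 (1.5 ± 0.46, adjusted p = 0.229), and Cps1, carbamoyl phosphate synthetase, had 1259.6, 1254 and 1342 FPKM and 553, 548 and 597 FPKM (1.18 ± 0.5, adjusted p = 0.556).

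A further set of genes higher in zone 2 had other roles. Aldh1b1, a mitochondrial aldehyde dehydrogenase (ENSMUSG00000035561.5, chr4:45799022-45804604, plus strand), was at 53.6, 34.6 and 51.7 FPKM in zone 2 and 0.0829, 0.17 and 0.594 FPKM in zone 3 (5.21 ± 0.45, adjusted p = 5.04e-07). It was below 1 FPKM in all zone 3 libraries, and the ratio of the means was 165, against a zone 3 mean of 0.282 FPKM. A1bg, a secreted plasma glycoprotein, was at 230.0, 387 and 319 FPKM in zone 2 and 38.7, 30.4 and 16.1 FPKM in zone 3 (3.46 ± 0.58, adjusted p = 0.0024). Cdh1, the adherens junction protein E-cadherin, was at 5.04, 10.2 and 9.77 FPKM in zone 2 and 1.47, 0.305 and 0 FPKM in zone 3 (2.6 ± 0.54, adjusted p = 0.022). The Cdh1 call was lost without zone 2 replicates 2 and 3 and zone 3 replicates 2 and 3 in turn, adjusted p = 0.107, 0.151, 0.0886 and 0.163. Ctsc, the lysosomal protease cathepsin C, was at 72.2, 109 and 102 FPKM and 16.5, 20.5 and 12.5 FPKM (2.45 ± 0.43, adjusted p = 0.00373). Bdh2, a cytosolic hydroxybutyrate dehydrogenase, was at 13, 11.8 and 8.93 FPKM and 1.27, 0.831 and 0.563 FPKM (2.7 ± 0.47, adjusted p = 0.00348). None of these groups overlapped.

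Other members of this side were Tstd1 (2.76), the crystallin family dehydrogenase Cryl1 (2.36), the semaphorin receptor Plxna2 (2.13), the peroxisomal isomerase Eci3 (1.86), the poly(A) polymerase Tent5c (1.68), Paqr3 (1.37), Noxred1 (1.32) and the guanylate-binding protein Gbp2b (1.26), with adjusted p from 0.00235 to 0.0298. Of these 8, Tstd1 passed in every refit without 1 library, and the largest adjusted p was 0.0663 for Cryl1, 0.0761 for Plxna2, 0.112 for Eci3, 0.123 for Tent5c, 0.157 for Paqr3, 0.143 for Noxred1 and 0.247 for Gbp2b. Paqr3 shares 1185 exon bases with Bmp2k on the opposite strand, and Tstd1 shares 200 with Usf1 on the same strand. Gbp2b, Noxred1, Tent5c, Eci3, Aldh1b1 and Sdsl were below 1 FPKM in all zone 3 libraries and reached the minimum level through zone 2 alone. Of 20 markers of periportal hepatocytes, all tested, 11 passed with a higher level in zone 2, among them Aldh1b1 and Sdsl. Of the 18 markers other than these, 9 passed, against 0.268% of all genes in that direction. In 17 the fitted level was higher in zone 2 (49.7% of all genes), and the median difference was 2.13. The 18 still hold genes, such as Etnppl and Cdh1, that were below 1 FPKM in most zone 3 libraries. Of these 18, 16 did not overlap, compared with 6.54% of all genes in that direction.

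Midlobular markers were less clear. None of 8 tested genes passed, and 2 had an unadjusted p under 0.05 by limma, both higher in zone 2 (4.39% of all genes). Of the 8, 7 had a higher fitted level in zone 2, and the median difference was 0.99. Hamp, which encodes hepcidin, had 1647, 1346 and 2245 FPKM in zone 2 and 790.4, 447 and 562 FPKM in zone 3 without overlap and a wide error (1.55 ± 1.18, adjusted p = 0.92). Igfbp2, an insulin-like growth factor binding protein, had 403, 438 and 438 FPKM and 117, 172 and 157 FPKM (1.53 ± 0.7, adjusted p = 0.624). Ccnd1, cyclin D1, had 42.9, 74.4 and 71.4 FPKM and 13, 45 and 26.9 FPKM, with an overlap through zone 3 replicate 2 (1.25 ± 0.43, adjusted p = 0.324).

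Genes of detoxification and lipid pathways are given as lists, beside the 0.491% of all genes that passed. Of 39 cytochrome P450 genes tested, Cyp2f2 alone passed, and 23 had a higher fitted level in zone 3. The list median was -0.31, with -0.52 without zone 3 replicate 2 and a range of -0.61 to -0.16 over all alternatives. The closely similar Cyp2a genes pointed in opposite directions: Cyp2a5 had 1201, 146 and 148 FPKM in zone 2 and 3349.9, 596 and 4482 FPKM in zone 3 (-2.81 ± 0.84, adjusted p = 0.208), and Cyp2a4 had 696, 252 and 255 FPKM in zone 2 and 156, 51.5 and 100.1 FPKM in zone 3 (1.92 ± 0.5, adjusted p = 0.101). Neither passed, and their unique reads may be divided unequally. Of 44 conjugating enzymes Gstm2 alone passed, and 32 had a higher fitted level in zone 3 (median -0.38; -0.51 without zone 3 replicate 2 and -0.17 without zone 3 replicate 3). Sult3a1, a sulfotransferase, had 29, 47.9 and 100.5 FPKM and 174, 242 and 516 FPKM and did not pass (-2.4 ± 0.69, adjusted p = 0.176).

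None of 24 bile acid genes passed (median -0.03, with -0.21 without zone 3 replicate 2 and 0.01 with quantile normalization). Of the 24, 2 had an unadjusted p under 0.05 by limma, against 7.51% of all genes. Cyp7a1, the rate-limiting enzyme of bile acid synthesis, had 29.8, 70.5 and 117 FPKM in zone 2 and 56.5, 105 and 386 FPKM in zone 3, and the groups overlapped (-1.06 ± 0.76, adjusted p = 0.904). None of 21 cholesterol genes passed and none had an unadjusted p under 0.05, yet all 21 had a higher fitted level in zone 3 (median -0.58). The median was -0.07 without zone 3 replicate 3. Lss, lanosterol synthase, had 30.2, 23.4 and 25.2 FPKM in zone 2 and 35.3, 49.9 and 128 FPKM in zone 3, where replicate 3 was the highest (-1.19 ± 0.59, adjusted p = 0.687). No gene passed among 12 of gluconeogenesis (median 0.33; 0.05 without zone 3 replicate 2), 21 of glycolysis and lipogenesis (-0.07; -0.36 without zone 3 replicate 2 and 0.08 without zone 2 replicate 3), 26 of fatty acid oxidation (-0.06; -0.25 without zone 3 replicate 2 and 0.11 without zone 3 replicate 1), 19 of iron handling (0.24), 32 nuclear receptors and regulators (-0.02), 20 of growth signaling (-0.0048), 14 immediate early genes (0.24) or 22 of the cell cycle (-0.32; 0.20 without zone 3 replicate 2). Without zone 2 replicate 3 the medians of iron handling and nuclear receptors were 0.15 and 0.01, and with the connective tissue covariate that of nuclear receptors was -0.19. The growth signaling median was 0.16 without zone 3 replicate 1. The immediate early median was 0.09 without zone 2 replicate 2, 0.49 without zone 3 replicate 1 and 0.14 without Fos, which was below 1 FPKM in all zone 3 libraries. An unadjusted p under 0.05 by limma was reached by 7.51% of all genes. The counts were 2 of 12 for gluconeogenesis, 2 of 32 for nuclear receptors, 2 of 20 for growth signaling, 1 of 22 for the cell cycle and 0 for the other 4 lists. Of 39 plasma protein genes none passed and 34 had a higher fitted level in zone 2 (median 0.40, 0.24 without zone 2 replicate 3 and 0.10 with the connective tissue level as a covariate; 2 at an unadjusted p under 0.05), with Alb taking 7.14 to 10.56% of the FPKM sum in zone 2 and 3.71 to 5.02% in zone 3. Of 31 proteasome subunits none passed and 30 had a higher fitted level in zone 3 (median -0.29; 4 at an unadjusted p under 0.05).

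**Figure D3:**
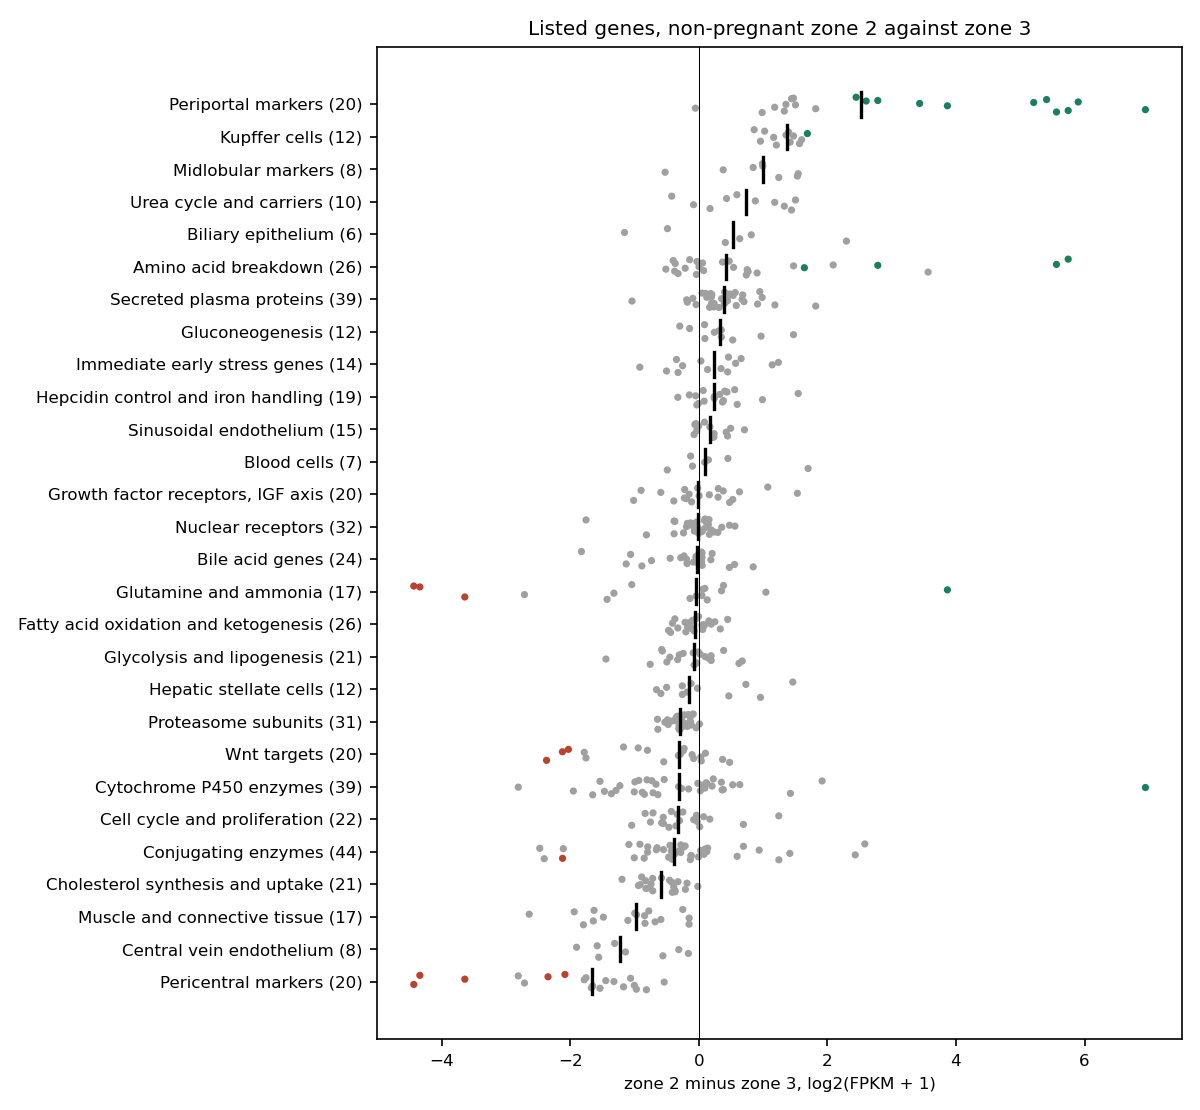
Zone 2 minus zone 3 difference on log2(FPKM + 1) (x axis) of each tested gene (points) in 28 gene lists (y axis, number of tested genes in brackets), ordered by their median (black bar); green points passed with a higher level in zone 2 and red points with a higher level in zone 3. The periportal list had the highest median (2.53) and the pericentral list the lowest (-1.66), with the Kupffer cell list second highest (1.38). The periportal median was 2.13 without Aldh1b1 and Sdsl, and the pericentral median was -1.65 without Rhbg.

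Markers of other cells were also compared between the captured zones. All 12 tested Kupffer cell genes had a higher fitted level in zone 2, and all 12 had an unadjusted p under 0.05, compared with 4.39% of all genes in that direction. The groups overlapped in none of the 12, the list median was 1.38 (1.30 without zone 3 replicate 2) and 1 gene passed after adjustment. The passing gene was Clec4f, a lectin receptor of the Kupffer cell, the resident macrophage of the sinusoid, at 97.5, 75.7 and 121 FPKM in zone 2 and 30.1, 20.8 and 39.6 FPKM in zone 3 (1.69 ± 0.35, adjusted p = 0.0237). The Clec4f call was lost without zone 2 replicates 1 and 3 and zone 3 replicates 1 and 2 in turn, adjusted p = 0.0723, 0.198, 0.0887 and 0.15. Csf1r, the receptor for macrophage colony-stimulating factor, had 43.2, 33.5 and 70.8 FPKM and 17.1, 11.7 and 16 FPKM (1.6 ± 0.38, adjusted p = 0.0568). The scavenger protein Cd5l had 72.4, 54.8 and 87.2 FPKM in zone 2 and 17.3, 23.6 and 29.9 FPKM in zone 3 (1.57 ± 0.4, adjusted p = 0.0952), and the complement receptor Vsig4 had 32, 29.5 and 55.1 FPKM and 11.6, 10.4 and 20.5 FPKM (1.4 ± 0.49, adjusted p = 0.335). The summed level of the list was 404 to 642 FPKM in zone 2, 184 to 215 FPKM in zone 3 and 225 to 307 FPKM in zone 1, and no listed gene was at 0 in any library. In bulk tissue such as this, fewer cells of a type and less RNA per cell cannot be told apart. The leukocyte genes Itgal, an integrin subunit (1.37 ± 0.29, adjusted p = 0.028), and Adgre4, a macrophage adhesion receptor (1.42 ± 0.32, adjusted p = 0.0496), also passed with a higher level in zone 2. The Adgre4 call was lost without zone 2 replicates 1 and 3 and zone 3 replicates 1, 2 and 3 in turn, adjusted p = 0.0813, 0.38, 0.166, 0.0829 and 0.187. Itgal was at 11.1, 7.59 and 9.72 FPKM in zone 2 against 2.9, 4.1 and 2.23 FPKM in zone 3, and its call was lost without zone 2 replicates 1 and 3 and zone 3 replicates 1 and 3 in turn, adjusted p = 0.108, 0.142, 0.103 and 0.191.

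By fitted value, endothelial genes of the central vein leaned the opposite way. All 8 tested genes had a higher fitted level in zone 3 (median -1.22; -1.09 without zone 3 replicate 2), 4 of them with an unadjusted p under 0.05 (3.12% of all genes in that direction), and none passed. Rspo3, which enhances Wnt signaling, had 1.26, 3.09 and 0.711 FPKM in zone 2 and 4.04, 5.4 and 6.42 FPKM in zone 3 (-1.31 ± 0.32, adjusted p = 0.0715), and the ligand Wnt2 had 1.86, 1.4 and 1.3 FPKM and 2.79, 6.67 and 4.79 FPKM (-1.14 ± 0.32, adjusted p = 0.159). Fabp4, an endothelial fatty acid-binding protein, had 4.24, 4.9 and 1.59 FPKM and 15.4, 8.4 and 25.9 FPKM (-1.9 ± 0.44, adjusted p = 0.0514). The summed level of the list was 16.9 to 25.6 FPKM in zone 2 and 50.1 to 63.8 FPKM in zone 3. Genes of the sinusoidal endothelium (15 tested, median 0.17), stellate cells (12, -0.15), bile ducts (6, 0.53) and blood cells (7, 0.09) had no member that passed by limma. By limma, 0, 4, 1 and 0 of them had an unadjusted p under 0.05, against 7.51% of all genes. The stellate count was 3 of 11 and the median -0.18 without Ngfr, which reached the minimum through zone 2 alone. Without zone 3 replicate 2 these medians were 0.11, -0.23, 0.86 and -0.02. Without zone 2 replicate 3 those of stellate cells and blood cells were 0.02 and -0.34. With the connective tissue level as a covariate the sinusoidal median was -0.0086 and that of blood cells was -0.35.

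Smooth muscle and connective tissue genes were higher in zone 3 in all 17 tested members by fitted value, and none passed. Of the 17, 1 had an unadjusted p under 0.05 by limma (3.12% of all genes in that direction). Their median was -0.97, which was -0.36 without zone 3 replicate 2. Their summed level was 97.2 to 246 FPKM in zone 2 and 125 to 1300 FPKM in zone 3, and 1 to 5 of the 22 listed genes were at 0 in each library. With the mean level of this list as a covariate, 127 genes passed (65 higher in zone 2 and 62 higher in zone 3), among them all 55. Zone 3 replicate 2 held the highest sum of these genes (1300 FPKM) and the highest Y-linked signal (7.92 FPKM) of the 6 libraries. The source of these signals was not tested, and their part in the zone differences was not tested beyond the covariate fit.

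**Figure D4:**
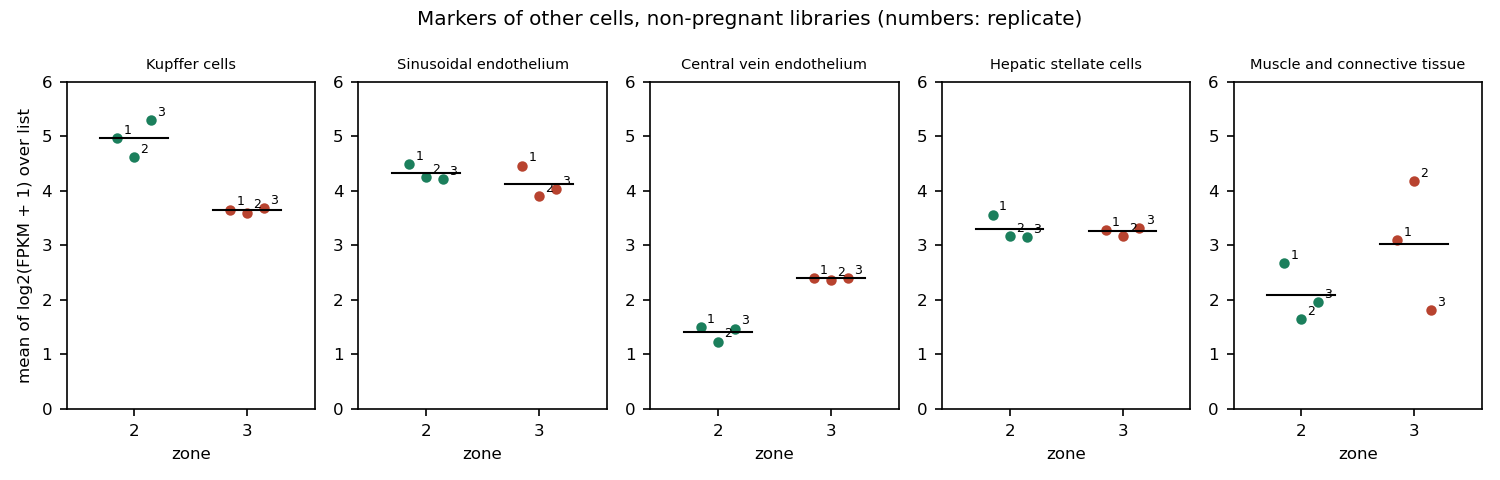
Mean log2(FPKM + 1) over the genes of 5 lists (y axis) in zones 2 and 3 of NP liver (x axis); points are libraries with their replicate number and lines are means. Kupffer cell genes lay at 4.62 to 5.29 in zone 2 and at no more than 3.69 in zone 3, central vein endothelium lay higher in zone 3, and zone 3 replicate 2 had the highest smooth muscle and connective tissue level (4.18).

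Zone 1 of NP liver places the 55 genes on the whole axis. Of the 30 genes higher in zone 2 than in zone 3, 22 had their highest mean in zone 1 and 8 had it in zone 2 (A1bg, Adgre4, Clec4f, Gbp2b, Itgal, Noxred1, Paqr3 and Plbd2). Of the 25 genes higher in zone 3, 19 had their lowest mean in zone 1 and 6 had it in zone 2 (4921524J17Rik, Ano1, Blnk, Gm45692, Pkdcc and Tnfrsf19). The comparison of zone 1 with zone 2 shares the zone 2 libraries, so its values are set side by side only, and 15 genes (0.134%) passed in it. One of the zone 1 libraries, replicate 1, had the highest Y-linked (15.39 FPKM) and connective tissue (5.38, mean log2) signal of the NP libraries. Cyp2f2 had 523, 1165 and 1455 FPKM in zone 1, a zone 1 minus zone 2 difference of 1.11 ± 0.52 beside its zone 2 minus zone 3 difference of 6.95. Lhpp had 1.26, 0.89 and 1.4 FPKM in zone 1, a difference of -3.75 ± 0.43 beside -2.34, and Gulo had 9.97, 14.4 and 26.9 FPKM, a difference of -2.91 ± 0.33 beside -2.08. Glul had 58.1, 23.6 and 69 FPKM in zone 1, a difference of -1.61 ± 0.43 beside -4.43, and Cdh1 had 16.8, 48.3 and 55.3 FPKM in zone 1 (2.03 ± 0.54 beside 2.6). Lhpp and Gulo had the larger value between zones 1 and 2, and Cyp2f2 and Glul had it between zones 2 and 3.

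Whether the second step exceeded the first was tested as the zone 2 minus zone 3 difference less the zone 1 minus zone 2 difference. Of 11200 genes 1 passed (0.00893%), which was Cyp2f2 (5.84 ± 0.89, adjusted p = 0.0168), and 609 had an unadjusted p under 0.05. The Cyp2f2 call was lost without zone 1 replicate 1 (adjusted p = 0.0548), without zone 2 replicate 1 (0.0829), 2 (0.052) or 3 (0.409) and without zone 3 replicate 1 (0.0543). Glul had -2.82 ± 0.74, adjusted p = 0.26, and A1bg, with 141, 589.5 and 116 FPKM in zone 1, had 3.98 ± 1.0, adjusted p = 0.206; neither passed.

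The pregnant groups gave separate libraries of the same zones, which entered the NP test only through the shared estimate of the spread. In dpc8 liver 45 genes (0.402%) and in dpc16 liver 59 genes (0.527%) passed between zone 2 and zone 3. Of the 55 genes of NP liver, 53 had the same direction at dpc8 and 54 at dpc16, where 54.8% and 56.6% of all genes did. At dpc8 35 of the 55 passed in the same direction, at dpc16 29 passed, 27 passed at both stages and 18 passed at neither. Of the 41 genes that did not reach the minimum level through one zone alone, 28 passed at dpc8, 24 at dpc16, 22 at both and 11 at neither. Glul kept a difference of -5.04 ± 0.43, adjusted p = 3.46e-07 at dpc8 and -4.04 ± 0.43, adjusted p = 6.49e-06 at dpc16. Cyp2f2 had 4.76 ± 0.52, adjusted p = 1.03e-05 at dpc8 and 5.93 ± 0.52, adjusted p = 5.49e-07 at dpc16, and Aldh1b1 had 3.82 ± 0.45, adjusted p = 3.31e-05 and 5.53 ± 0.45, adjusted p = 3.19e-07. Sp5 also passed at both stages (-2.17 ± 0.23, adjusted p = 1.02e-05; -1.47 ± 0.23, adjusted p = 0.00122), whereas Nkd1 passed at dpc8 (-1.62 ± 0.35, adjusted p = 0.036) and not at dpc16 (-0.89 ± 0.35, adjusted p = 0.815). The pregnant libraries are also labelled WT C57BL/6 females. Zone 3 replicate 3 and zone 2 replicate 3 at dpc16 and zone 2 replicate 2 at dpc8 are among 6 libraries of the series with raised Y-linked and connective tissue signal, as is zone 3 replicate 2 of NP liver. Without these 6 libraries 117 genes passed in NP liver and 45 of them passed at both stages of pregnancy.

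**Figure D5:**
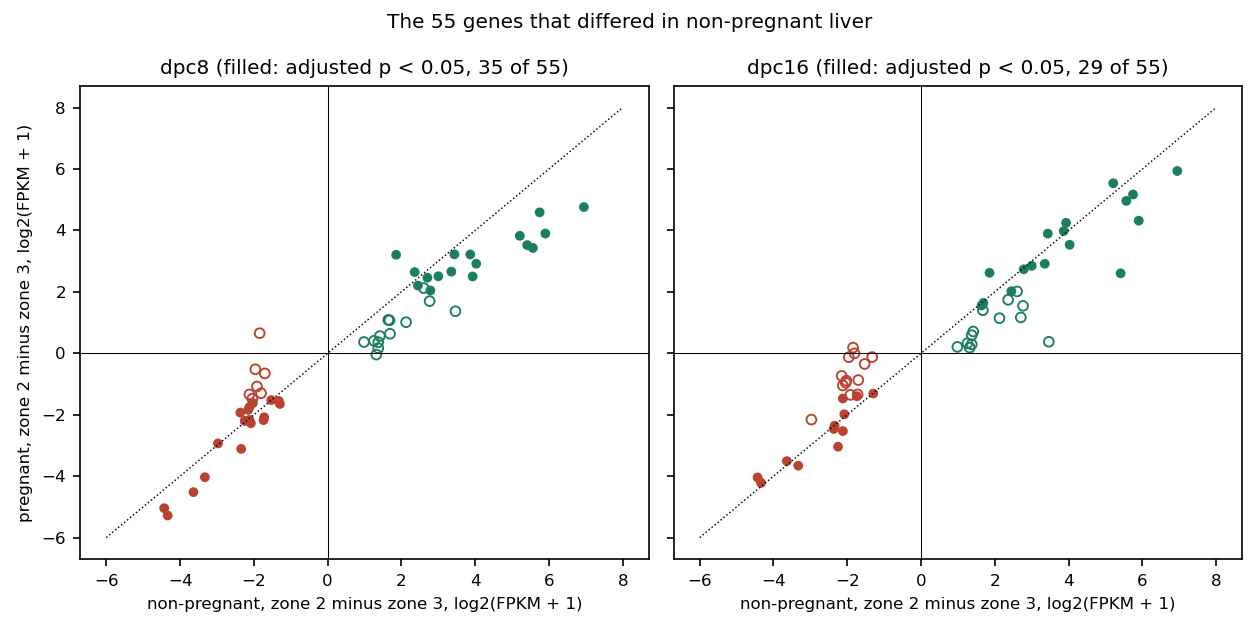
Zone 2 minus zone 3 difference on log2(FPKM + 1) in NP liver (x axis) against the same difference at dpc8 (left, y axis) and dpc16 (right, y axis) for the 55 genes that passed in NP liver; filled points passed in the pregnant libraries (35 and 29), open points did not, and the dotted line marks equal differences. At dpc8 53 and at dpc16 54 of the genes kept their sign.

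The change of the difference with pregnancy was itself tested. No gene passed for NP minus dpc8 (0%; 312 had an unadjusted p under 0.05 by limma), and 1 of 11200 passed for NP minus dpc16 (0.00893%; 289 unadjusted). That gene was Cyp2c69, a cytochrome P450 of the Cyp2c family, which did not pass in NP liver: it had 405, 452 and 535 FPKM in zone 2 and 634, 753 and 901 FPKM in zone 3 (-0.71 ± 0.33, adjusted p = 0.625). At dpc16 it had 54.7, 31.3 and 39.6 FPKM in zone 2 and 583, 515 and 403 FPKM in zone 3 (-3.57 ± 0.33, adjusted p = 9.44e-07), and the change was 2.86 ± 0.46, adjusted p = 0.0364. This call was lost in 10 of the 12 refits that left out 1 library, with adjusted p up to 0.204 without zone 3 replicate 1 of NP liver, and in the fit of the compared groups alone (0.137). Among genes that passed in NP liver, A1bg had 1.37 ± 0.58, adjusted p = 0.975 at dpc8 and 0.37 ± 0.58, adjusted p = 1 at dpc16, and the change from NP did not pass (NP minus dpc16 3.09 ± 0.81, adjusted p = 1). A p that misses the threshold with 3 libraries per group does not show that the zones differed equally at all stages.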

How the data were processed

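Liver zones were captured by laser from 5 µm cryosections of mice, 2 mm2 per zone, and sequenced from 50 ng of RNA as single-end reads of 86 bases on a NextSeq 500. Per the labels and the study's methods, the authors trimmed reads with cutadapt, aligned them to mm10 with HISAT2 2.1.0 and computed FPKM per gene with Cufflinks 2.2.1 and Cuffdiff on GENCODE vM22, keeping uniquely mapped reads. The deposited FPKM values were used as they are; the strand setting is not given in the sources used here.

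Genes with at least 1 FPKM in 3 or more of the 6 NP zone 2 and zone 3 libraries were tested on log2(FPKM + 1) with limma 3.58.1 in R 4.3.3. The linear model held a mean for each of 9 groups over 27 libraries, with a trended and robust prior variance, two-sided tests and Benjamini-Hochberg adjustment over all 11200 genes at 0.05. The other 10623 genes were left out. The study's own Cuffdiff test needs reads and was not run. No count test was run, since the values are not counts. The model was tested on simulated data.

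Depth was estimated from the steps between low FPKM values, which scale with gene length. Between 94.29 and 97.16% of the low values examined per library came out as whole reads within 0.1, so depth is approximate and covers counting error only. Positions came from GENCODE vM21 (mm10), which holds 21806 of 21823 identifiers. Promoters came from RefSeq on GRCm38.p6.

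Named genes were up to 15 per direction with the largest difference among those that passed without overlap, up to 5 per direction for the other contrasts, and listed genes that passed or are best known. The remaining genes that passed, and Plg, Gm38392 and the other overlapping genes, were named after their values were seen. The members and gene lists were chosen with earlier results of these data known. Alternatives covered the pseudocount, filters, scaling, libraries in the fit, weights, a replicate block, a connective tissue covariate and leaving out libraries. Replicate numbers were not treated as pairs, since the labels do not say what they stand for. The deviations of same-numbered zone 2 and zone 3 libraries correlated at 0.296, 0.024 and -0.0844, against -0.261 to 0.202 for unlike numbers. With 3 libraries per zone these values cannot settle whether the libraries were paired.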

Additional observations from a re-analysis of the deposited data

Results flagged for a closer look

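The zone difference of Cyp2c69 changed with pregnancy by a test of the change itself. NP minus dpc16 was 2.86 on the log2(FPKM + 1) scale with an adjusted p of 0.0364 by limma, and all 3 dpc16 zone 2 libraries (31.3 to 54.7 FPKM) lay below all 3 NP zone 2 libraries (405 to 535 FPKM). The adjusted p ranged from 0.00227 to 0.204 over the alternatives.

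The gene 4921524J17Rik had its zones in opposite order in NP and dpc8 liver, with every zone 3 library above every zone 2 library in NP and every one below in dpc8. Its dpc8 levels were 5.85, 12.2 and 4.57 FPKM in zone 2 and 4.08, 3.97 and 4.12 FPKM in zone 3, a difference of 0.653 on the log2(FPKM + 1) scale. The test of the change did not pass (NP minus dpc8 -2.5, adjusted p = 0.998 by limma).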

How the results depend on the processing

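The count of 55 genes between NP zone 2 and zone 3 was 102 with array weights, 127 after adding the connective tissue level as a covariate, 117 when the 6 libraries of raised Y-linked signal were left out and 32 in a fit of the 6 libraries alone, where 23 of the 55 passed. With the replicate number as a block, it was 137, among them all 55; the labels do not say what the numbers stand for, and they were not treated as pairs. Without 1 library at a time it was 34 to 53, the lowest without zone 2 replicate 3. It was 47 to 69 under another pseudocount, filter, scaling or prior and 39 in the 9 NP libraries. None of the 55 differences changed sign under these alternatives. For the refits without 1 library this was fixed in advance, since the groups of all 55 did not overlap. Of the 55, 20 passed in every fit.

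The count of 1 gene in the step test was 0 with a pseudocount of 0.1, without a filter and in the 9 NP libraries alone, 15 with array weights, 12 with the block, 3 with the covariate, 17 without the 6 libraries and 0 to 6 without 1 library. The 1 gene of NP minus dpc16 was 2 with the filter over all 27 libraries, 5 without a filter, 0 in the groups compared alone and 0 to 1 without 1 library. The count for NP minus dpc8 was 0 throughout, with 223 to 550 genes at an unadjusted p under 0.05. The 27 genes passing at all 3 stages became 51 with weights, 41 with the covariate, 45 without the 6 libraries, 39 with the block, 6 in the groups compared alone and 19 to 28 without 1 library. The causes were not tested. With about 1 read per kb worth 0.0498 to 0.0871 FPKM, values under 0.3 FPKM rest on a handful of reads.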
